A study of Mus musculus with 2 samples.

Results

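The apolipoprotein genes Apoa1, Apoa2, Apoa4, Apoa5, Apob, Apoc1, Apoc2, Apoc3, Apoe and Apom were followed through droplet-based single-cell RNA-seq of perfused mouse liver. They were taken by name from the count table, as 10 of its 31053 genes, and all 10 had a row. The mice were C57BL/6 and formed 2 groups, each of 1 library. The control carried LAP-tTA, a tetracycline transactivator under the LAP promoter, and no inducible allele (genotype LaptTA;WT). The tetYAP_4W library carried the same LAP-tTA driver together with tetYAP, an inducible and constitutively active form of the transcriptional coactivator YAP (genotype LaptTA; tetYAP), and is labelled as 4 weeks. Per the study's methods, doxycycline in the food keeps the transgene silent, a regular diet given from 4 weeks of age switches it on, and the driver is used for expression in the liver. The labels give no age, and they do not say how many animals each library came from. Both libraries are labelled as hepatocytes. With 1 library per group no difference between the groups has a replicate check and none was tested. All intervals below are 95% intervals for counting error only.

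Apolipoproteins are the protein parts of plasma lipoproteins, and the liver secretes most of them. Apob forms the structural shell of very-low-density and low-density lipoproteins, Apoa1 and Apoa2 are the main proteins of high-density lipoprotein, and the small exchangeable apolipoproteins move between particles and govern lipolysis and uptake. Apoe is the ligand by which remnant particles are taken up through receptors of the LDL receptor family, and it is also made by macrophages and stellate cells. Transcription of these genes in hepatocytes is known to depend on liver factors such as HNF4A.

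The promoter windows of 4 members are shown because these genes contrast in how their levels compared between the libraries. Apoa1 and Apoa2 were lower in the tetYAP_4W library, and Apob and Apoe differed little as shares of all transcripts counted over all barcodes. On other scales, given below, the levels of Apob and Apoe differed more. Each sequence was taken from RefSeq (build GRCm38.p6) and holds the 250 bases before an annotated start, written 5′ to 3′ on the strand of the gene. Where a gene has several annotated starts the first listed is printed. For Apoa2, Apob and Apoe the printed start lies inside the span of the gene. Capitals mark matches to the core CAAAG of the HNF4 site or its reverse complement, and to TATAAA.

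Apoa1, chr9:46228380-46228629, plus strand: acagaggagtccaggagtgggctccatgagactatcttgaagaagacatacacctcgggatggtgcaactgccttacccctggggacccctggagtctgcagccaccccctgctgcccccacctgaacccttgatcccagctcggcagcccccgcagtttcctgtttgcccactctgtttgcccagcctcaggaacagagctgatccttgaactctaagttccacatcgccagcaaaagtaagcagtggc
Apoa2, chr1:171224804-171225053, plus strand: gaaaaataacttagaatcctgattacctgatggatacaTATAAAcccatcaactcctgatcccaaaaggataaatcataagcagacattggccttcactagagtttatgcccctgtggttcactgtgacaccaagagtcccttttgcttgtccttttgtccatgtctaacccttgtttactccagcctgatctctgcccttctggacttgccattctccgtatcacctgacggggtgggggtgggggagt
Apob, chr12:7977427-7977676, plus strand: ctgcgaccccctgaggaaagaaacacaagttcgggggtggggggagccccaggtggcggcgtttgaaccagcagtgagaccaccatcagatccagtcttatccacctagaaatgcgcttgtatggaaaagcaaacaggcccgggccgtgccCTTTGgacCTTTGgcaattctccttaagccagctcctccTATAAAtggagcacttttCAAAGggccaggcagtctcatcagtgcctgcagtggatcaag
Apoe, chr7:19699189-19699438, minus strand: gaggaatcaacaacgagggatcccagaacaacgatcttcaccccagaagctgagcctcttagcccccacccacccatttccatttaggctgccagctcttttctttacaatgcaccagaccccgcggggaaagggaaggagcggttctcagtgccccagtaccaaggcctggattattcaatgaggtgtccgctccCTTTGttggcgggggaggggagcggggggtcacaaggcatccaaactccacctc

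Motifs were searched in windows of 300 bases, these 250 and the 50 that follow the start. A window was matched for 8 of the 10 members, all but Apoc1 and Apoc3. On either strand, CAAAG was present in the first listed window of 5 of these 8 members (Apoa4, Apoa5, Apob, Apoc2 and Apoe) and in 53.9% of all 32851 windows. In the first listed windows the longer form CAAAGTCCA was in none of the 8, and it was in 0.475% of all windows. The TEAD site GGAATG was in the first listed window of Apoa4 alone among the 8, and in 14.7% of all windows. TATAAA was in the first listed windows of Apoa2, Apoa5 and Apob, and in 13.6% of all windows. The C/EBP form TTNNGNAA was in that of Apob, where it overlaps a CAAAG match, and in 40.7% of all windows. Windows of other annotated starts held further matches: GGAATG and TTNNGNAA at 1 other start of Apoe, TATAAA at another, and TTNNGNAA at 1 other start of Apoa2. The printed windows of Apoa1 and Apoa2 hold no CAAAG, and those of Apob and Apoe do. These genes were printed for their contrast between the libraries, and no link of CAAAG to that contrast was tested. The search describes the letters of these windows only, and HNF4 sites that vary from CAAAG are not marked by it.

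The table holds 2989 control barcodes with 9509885 unique molecular identifiers (UMIs, each a counted transcript molecule) and 1524 tetYAP_4W barcodes with 6777210 UMIs. Barcodes held 516 to 7277 UMIs in the control and 2355 to 7493 in the tetYAP_4W library, and no cell barcode was shared between the libraries. By the study's methods each condition was reduced to 3000 barcodes, and barcodes over 7500 UMIs were left out. How many the limit removed from each library is not stated. Levels and highest values per barcode thus leave out deeper barcodes, possibly more of them in the tetYAP_4W library, which kept far fewer barcodes. A barcode was given a cell class other than hepatocyte where UMIs of that class's markers reached 10. They also had to be at least 2 times those of any other such class, and hepatocyte markers took no part. Median hepatocyte marker UMIs exceeded those of the own markers in every class but the erythroid-like. In tetYAP_4W macrophage-like barcodes they were 213 against 55.5, and in erythroid-like ones 227 against 914. In the control this rule named 31 macrophage-like, 74 endothelial-like, 6 stellate-like, 10 T or NK cell-like, 5 erythroid-like and 1 dendritic-like barcodes. In the tetYAP_4W library it named 302 macrophage-like, 183 endothelial-like, 21 stellate-like, 101 T or NK cell-like, 41 B or plasma cell-like, 15 neutrophil- or monocyte-like and 40 erythroid-like barcodes. A further 1 control and 54 tetYAP_4W barcodes carried markers of more than 1 class and stayed unnamed. The remaining 2861 control and 767 tetYAP_4W barcodes had under 10 marker UMIs of each of these classes and are called unclassed here. The libraries also differed in sex-linked transcripts: Xist had 3 control and 4859 tetYAP_4W UMIs, and 4 Y-linked genes had 716 and 0, so sex and transgene cannot be told apart.

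The hepatocyte label was checked in the unclassed barcodes with markers that include no member. In the control, the 12 hepatocyte markers gave 209 UMIs per unclassed barcode and 212 per blood-cell barcode, the latter being the 15 T or NK cell-like and erythroid-like barcodes, cells that do not make hepatocyte proteins. In the tetYAP_4W library the blood-cell barcodes also include the B or plasma cell-like ones, of which the control had none. The control ratio was 0.987 (0.953 to 1.02), so per barcode hepatocyte markers did not set the unclassed control barcodes apart from blood cells. The control blood-cell barcodes were deeper, with a mean of 4121 UMIs against 3128 in unclassed ones. Neither this ratio nor that of the tetYAP_4W library below is scaled to depth. In the tetYAP_4W library the same markers gave 309 UMIs per unclassed barcode and 244 per blood-cell barcode, of which there were 182, a ratio of 1.27 (1.25 to 1.28). Since hepatocyte RNA was present in blood-cell barcodes in such amounts, the unclassed barcodes are called by their rule and not as hepatocytes, and levels are set beside those of the blood-cell barcodes of the same library. The median depth was 3101 UMIs in unclassed and 4053 in blood-cell barcodes of the control, and 3978 and 4400.5 in those of the tetYAP_4W library. The median mitochondrial share of UMIs was 28.2% in unclassed control and 56.5% in unclassed tetYAP_4W barcodes. Malat1, a nuclear RNA, had 2.45 and 9.29 UMIs per unclassed barcode. The part of these differences in the results was not tested. In sums over barcodes, fewer cells of a type and less RNA per cell cannot be told apart.

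Taken over all barcodes, the 10 genes made up 7.59% of the UMIs of the control library and 3.90% of those of the tetYAP_4W library. The 2 main proteins of high-density lipoprotein and 2 of the 3 measured C apolipoproteins accounted for most of this difference, while Apoe and Apob stayed within 1.07-fold. Because the assay tags each transcript once at its 3′ end, UMIs were compared between genes with no correction for length. Levels are given as UMIs per 1000000 UMIs of the library (CPM).

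Among the proteins of high-density lipoprotein, Apoa2 was the highest member of the control, at 25918 CPM (246473 UMIs, the gene of rank 7), and had 8391 CPM (56865 UMIs, rank 13) in the tetYAP_4W library. The log2 ratio of tetYAP_4W over control was -1.63 (-1.64 to -1.61). Apoa1, the activator of cholesterol esterification on these particles, had 9364 CPM (89047 UMIs) and 2985 CPM (20227 UMIs), a log2 ratio of -1.65 (-1.67 to -1.63). These were the largest differences of any member. Apom, which carries sphingosine-1-phosphate on high-density lipoprotein, was far less abundant at 624 CPM (5930 UMIs) and 274 CPM (1854 UMIs), with a log2 ratio of -1.19 (-1.26 to -1.11).

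Of the C apolipoproteins, Apoc1 had 13084 CPM (124425 UMIs) in the control and 4982 CPM (33762 UMIs) in the tetYAP_4W library, a log2 ratio of -1.39 (-1.41 to -1.38). Apoc3, an inhibitor of triglyceride lipolysis, had 4849 CPM (46110 UMIs) and 1847 CPM (12520 UMIs), again a log2 ratio of -1.39 (-1.42 to -1.36). Apoc2, the activator of lipoprotein lipase, had 6 UMIs and 1 UMI. In the annotation its whole span lies within that of Gm44805, a protein-coding model that runs on through Apoc4 and held 1 UMI in each library, so reads of the shared exons may not have been counted for either gene and no direction is given.

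Apoe had 19936 CPM (189591 UMIs, rank 9) in the control and 18713 CPM (126822 UMIs, rank 8) in the tetYAP_4W library, a log2 ratio of -0.09 (-0.10 to -0.08). It replaced Apoa2 as the highest member. Apob had 1402 CPM (13333 UMIs) and 1313 CPM (8896 UMIs), a log2 ratio of -0.10 (-0.13 to -0.06). Apoa5, a regulator of plasma triglyceride, had 630 CPM (5991 UMIs) and 373 CPM (2525 UMIs), a log2 ratio of -0.76 (-0.83 to -0.69). Apoa4, which in mice is made in gut and liver, had 88.01 CPM (837 UMIs) and 82.3 CPM (558 UMIs), and its interval for the log2 ratio, -0.25 to 0.06, included no difference.

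**Figure D1:**
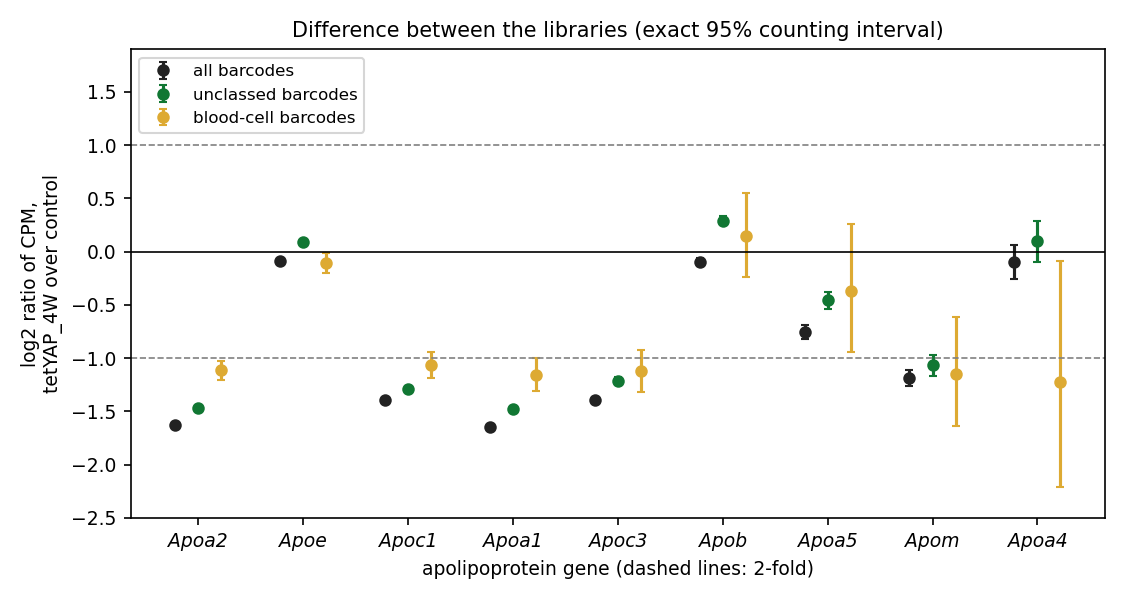
Log2 ratio of CPM, tetYAP_4W over control, for 9 members (Apoc2 left out for its 6 UMIs and 1 UMI) over all, unclassed and blood-cell barcodes; points are the ratios and bars exact 95% counting intervals, with dashed lines at 2-fold. Apoa1, Apoa2, Apoc1, Apoc3 and Apom lie below -1 in each of the 3 sets, and Apoe lies at -0.09, 0.09 and -0.11; Apoa4 in blood-cell barcodes rests on 10 control UMIs.

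Over all barcodes 5 of the 9 members with at least 100 UMIs were lower past 2-fold (Apoa1, Apoa2, Apoc1, Apoc3 and Apom) and 0 were higher. Of all 7828 genes with as many UMIs, 8.96% were lower and 27.8% higher past 2-fold. The median log2 ratio was -1.19 over the 9 members and 0.32 over the 7828 genes. Counted as UMIs per barcode in place of CPM, 2 members (Apoa1 and Apoa2) were lower past 2-fold and 0 higher, beside 3.19% of the 7828 genes lower and 42.7% higher, and Apoe, Apob and Apoa4 were 1.31-fold higher per barcode in the tetYAP_4W library. The direction of the last 3 depended on the scale: the log2 ratio of Apoe was 0.17 without mitochondrial transcripts in the totals and -0.65 with TMM factors, and that of Apob was 0.17 and -0.66.

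Genes that lie side by side did not all share a ratio. On GRCm38.p6, Apoa1 (chr9:46228630-46230469), Apoc3 (chr9:46233050-46235636), Apoa4 (chr9:46240844-46243458) and Apoa5 (chr9:46268608-46271921) follow each other with no gene of the annotation overlapping them. Their log2 ratios over all barcodes in that order were -1.65, -1.39, -0.10 and -0.76, with the weakest in Apoa4, between Apoc3 and Apoa5. On chromosome 7, Apoc2 (chr7:19671579-19677941), Apoc4 (chr7:19678084-19681460), Apoc1 (chr7:19689480-19692659) and Apoe (chr7:19696244-19701310) form the second cluster. Apoc4, a minor apolipoprotein of triglyceride-rich particles that is not among the 10 genes, had 18474 and 5261 UMIs and a log2 ratio of -1.32 (-1.37 to -1.28), close to the -1.39 of Apoc1, while Apoe beside them had -0.09. Apoa2 (chr1:171221564-171226379, overlapping Tomm40l), Apob (chr12:7977629-8016839) and Apom (chr17:35128997-35131801) lie apart from these clusters. All coordinates span the whole protein-coding gene, introns and untranslated exons included.

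In the unclassed barcodes Apoa1 and Apoa2 again had the lowest ratios. Per barcode, Apoa1 had a median of 30 UMIs in the control (lowest 0, highest 90) and 14 in the tetYAP_4W library (0 to 54), and in CPM 9522 and 3427, a log2 ratio of -1.474 (-1.503 to -1.446). Apoa2 had a median of 84 UMIs (0 to 210) and 37 (3 to 286), and a log2 ratio of -1.47 (-1.49 to -1.45). The ranges of both genes overlapped between the libraries, although the quartiles did not. For Apoa2 the quartiles were 75 and 92 UMIs in the control and 30 and 44 in the tetYAP_4W library.

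Apoc1 had a median of 42 UMIs per unclassed barcode (0 to 152) in the control and 21 (0 to 166) in the tetYAP_4W library, with a log2 ratio of CPM of -1.29 (-1.31 to -1.26). For Apoc3 the medians were 15 (0 to 51) and 8 (0 to 105) and the log2 ratio was -1.22 (-1.25 to -1.18). Apom reached a log2 ratio of -1.07 (-1.17 to -0.97) on medians of 2 and 1 UMIs. These 3 genes thus kept the direction seen over all barcodes, Apom with an interval that includes 2-fold.

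Apoe differed the other way per barcode, with a median of 64 UMIs (2 to 165) in the control and 81 (9 to 262) in the tetYAP_4W library. In CPM this came to 20206 and 21454, a log2 ratio of 0.09 (0.07 to 0.10). Apob had medians of 4 (0 to 17) and 6 (0 to 31) UMIs and a log2 ratio of 0.29 (0.25 to 0.34). Apoa5 had a log2 ratio of -0.46 (-0.54 to -0.38) and Apoa4 one of 0.10 (-0.10 to 0.29). Against the median of all 5548 genes with at least 100 UMIs in these barcodes, which was -0.43, Apoe stood at 0.52 and Apob at 0.73, and Apoa1 at -1.04.

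Again 5 of 9 members were lower past 2-fold and 0 higher, beside 20.3% of the 5548 genes lower and 7.05% higher. As UMIs per barcode 2 of 9 (Apoa1 and Apoa2) were lower past 2-fold and 0 higher, beside 6.56% of these genes lower and 13.1% higher. With mitochondrial transcripts left out of the totals the median of all genes was 0.17, and 0 members were past 2-fold. The log2 ratios of Apoa5, Apob and Apoe then became 0.15, 0.90 and 0.69. Kept to barcodes of at most 30% mitochondrial UMIs (1757 control and 122 tetYAP_4W), 1 member, Apoa1, was lower past 2-fold. There the log2 ratio of Apob was -0.20 and that of Apoe -0.002. No share of all genes past 2-fold is given for either of these settings.

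Split by mitochondrial share, the unclassed barcodes gave different ratios for the same gene. Among barcodes of 20 to 30% (1549 control and 90 tetYAP_4W), Apoa1 had 9987 and 4705 CPM, a log2 ratio of -1.09 (-1.16 to -1.01), and Apoe 21094 and 22723 CPM, a log2 ratio of 0.11 (0.07 to 0.14). Among barcodes over 50% (41 control and 487 tetYAP_4W), Apoa1 had 3120 and 2990 CPM, a log2 ratio of -0.06 (-0.24 to 0.12), and Apoe 9056 and 21003 CPM, a log2 ratio of 1.21 (1.11 to 1.32). In these control barcodes the 10 genes together had 57.8 UMIs per barcode, against 251 at 20 to 30%, whereas the tetYAP_4W barcodes had 183 and 186. In every stratum Apoa1 had the lowest ratio of the 6 genes plotted, and in the strata above 20% Apoe had the highest.

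**Figure D2:**
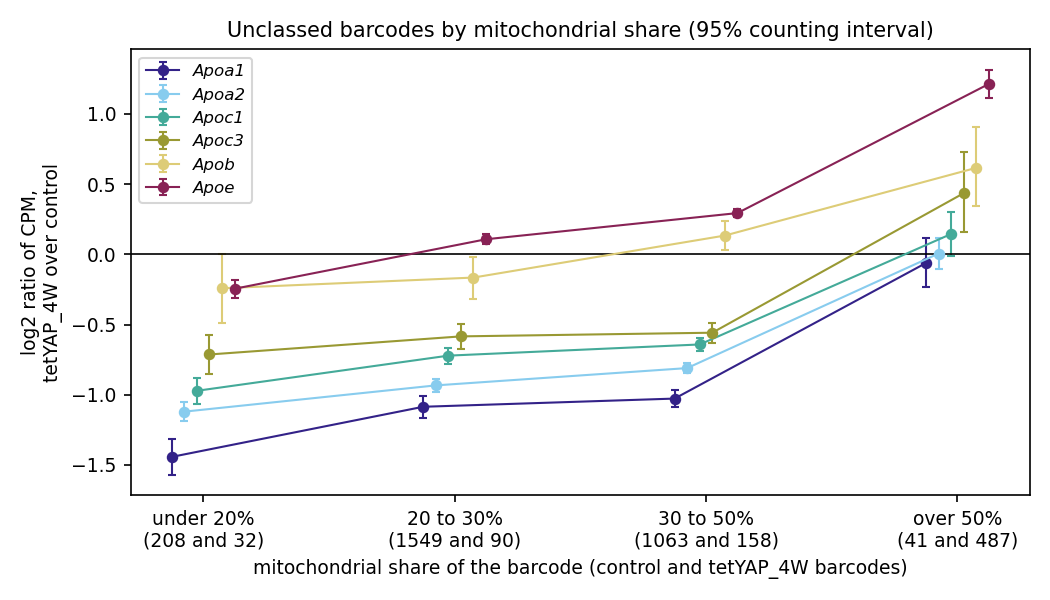
Log2 ratio of CPM, tetYAP_4W over control, in unclassed barcodes split by mitochondrial share of UMIs (x axis, with the number of control and tetYAP_4W barcodes); points are ratios and bars exact 95% counting intervals for 6 members. The ratios of all 6 genes are highest in the barcodes over 50%, where the control has 41 barcodes.

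Set beside the blood-cell barcodes, which should make none of these proteins, the unclassed control barcodes held about the same number of apolipoprotein UMIs per barcode. The 10 genes summed to 242 UMIs per unclassed and 237 per blood-cell barcode, a ratio of 1.02 (0.987 to 1.05). Apoe had 63.2 and 64.9 UMIs per barcode, a ratio of 0.974 (0.915 to 1.04), and Apoa1 29.8 and 27.9, a ratio of 1.07 (0.971 to 1.18). Apoa2 had 83.0 and 77.1, and its ratio of 1.08 (1.02 to 1.14) was the only one of these whose interval lay above 1. The comparison rests on 15 blood-cell barcodes, which were deeper than the unclassed ones, and in CPM the 10 genes had 77384 in unclassed and 57580 in blood-cell barcodes. The other plasma protein genes behaved alike: over 16 genes fixed as a comparison list, the ratio ran from 0.820 to 1.22 with a median of 0.969.

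In the tetYAP_4W library the members split. Apoe had 90.2 UMIs per unclassed and 65.1 per blood-cell barcode, a ratio of 1.39 (1.36 to 1.41). Apob had 7.34 and 4.61, a ratio of 1.59 (1.48 to 1.71). Apoa1, Apoa2 and Apoc1 were closer to their blood-cell levels, with intervals above 1 and ratios of 1.07 (1.02 to 1.11), 1.05 (1.02 to 1.08) and 1.08 (1.04 to 1.11). Over the 16 other plasma protein genes the ratio ran from 1.04 to 1.79 with a median of 1.25, and Alb, the albumin gene, had 190 and 151 UMIs per barcode, a ratio of 1.26 (1.24 to 1.28). The ratio was 1.30 (1.14 to 1.48) for Apoa5, 1.30 (0.973 to 1.76) for Apoa4, 1.06 (1.005 to 1.12) for Apoc3 and 0.997 (0.863 to 1.16) for Apom. With unclassed and blood-cell barcodes both kept to at most 30% mitochondrial UMIs the ratio was 1.21 (1.18 to 1.25) for Apoe and 1.04 (0.918 to 1.17) for Apob. In unclassed barcodes with 15 or more Malat1 UMIs (87 barcodes) Apoe had 63.6 UMIs per barcode, near the blood-cell value.

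**Figure D3:**
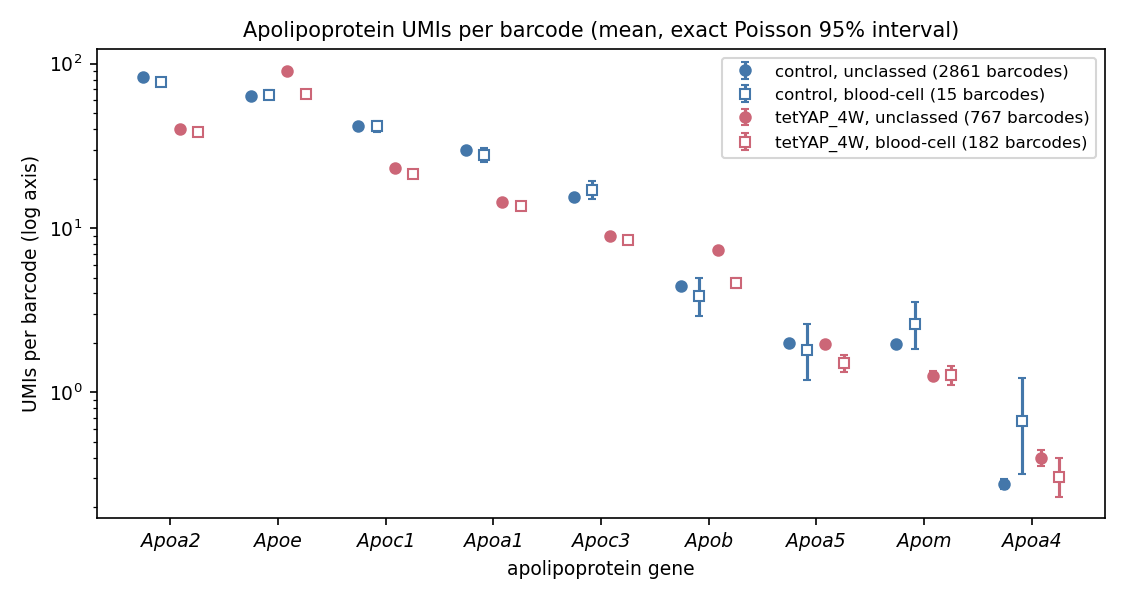
UMIs per barcode (log axis) of 9 members in unclassed and blood-cell barcodes of each library; points are means over barcodes and bars exact Poisson 95% intervals. The control symbols lie close together for Apoa2, Apoe, Apoc1 and Apoa1, and in the tetYAP_4W library the unclassed symbol stands above the blood-cell symbol for Apoe (90.2 against 65.1) and Apob (7.34 against 4.61).

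The libraries' blood-cell barcodes differed from each other in the same genes. Apoa2 had 77.1 UMIs per blood-cell barcode in the control and 38.4 in the tetYAP_4W library, and Apoa1 27.9 and 13.5. In CPM their log2 ratios were -1.12 (-1.21 to -1.03) and -1.154 (-1.305 to -1.001), and 5 of 8 members with at least 100 UMIs were lower past 2-fold, beside 9.22% of 792 genes. Apoe had 64.9 and 65.1 UMIs per barcode, a ratio of 1.004. The differences in Apoa1 and Apoa2 were thus present in barcodes of cells that should not make them.

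Outside the unclassed barcodes, Apoe stood out in the macrophage-like barcodes. In the tetYAP_4W library it had 85.7 UMIs per macrophage-like barcode, 1.32 times the blood-cell level (1.29 to 1.34), while Apoa1 had 10.9, Apoa2 31.0 and Apoc3 6.63, each below the blood-cell level. For Apoa2 the ratio was 0.808 (0.783 to 0.833). Apoe made up 52.5% of the summed UMIs of the 10 genes there (52.1 to 53.0), against 42.1% in blood-cell barcodes (41.5 to 42.7) and 48.0% in unclassed ones (47.7 to 48.3). The median depth of the macrophage-like barcodes was 4265 UMIs.

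Apoc1, which lies next to Apoe, had 22.2 UMIs per macrophage-like barcode, a ratio to blood-cell barcodes of 1.03 (0.994 to 1.08). Its share of the 10 genes was 13.6% (13.3 to 13.9), and 13.9% (13.5 to 14.3) in blood-cell barcodes. In the control, with 31 macrophage-like barcodes, Apoe had 64.5 UMIs per barcode, a ratio of 0.995 (0.921 to 1.08), where Apoa2 had a ratio of 0.710 (0.658 to 0.766) and Apoc1 one of 0.612 (0.550 to 0.681), at 13.7% of the 10 genes against 17.5% in blood-cell barcodes. The share of Apoe among the 10 genes was 34.8% (33.6 to 36.0) against 27.3% (25.9 to 28.8) in blood-cell barcodes. The macrophage-like barcodes of both libraries thus held more Apoe relative to the other members than blood-cell barcodes did. Those of the tetYAP_4W library also held more per barcode. A higher share than in blood-cell barcodes was not theirs alone. The Apoe share of endothelial-like barcodes was 29.5% (28.8 to 30.1) in the control, its interval just meeting that of blood-cell barcodes. It was 47.3% (46.7 to 47.8) in the tetYAP_4W library. Stellate-like barcodes had 45.5% (43.8 to 47.2) there, but 25.9% (23.6 to 28.3) in the control.

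Among the macrophage-like barcodes of the tetYAP_4W library, those with more complement C1q, which tissue macrophages make, held more Apoe and less Apoa2. At 10 or more UMIs of C1qa, C1qb and C1qc (215 tetYAP_4W barcodes, median 4496 UMIs) Apoe had 89.2 UMIs per barcode and Apoa2 27.7. With fewer C1q UMIs (87 barcodes, median 3735 UMIs) they had 77.1 and 39.3. In the control the 23 barcodes with 10 or more C1q UMIs had 73.6 Apoe UMIs, 1.13 times the blood-cell level (1.05 to 1.23), and the 8 others 38.6, at median depths of 4031 and 2638 UMIs. Apoa2 differed the other way there, with 57.7 and 46.3 UMIs per barcode. This split was chosen after the values were seen.

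Endothelial-like barcodes were deeper than blood-cell barcodes in the tetYAP_4W library, with medians of 5535 and 4400.5 UMIs, and their Apoe was higher per barcode but not in CPM. In the tetYAP_4W library Apoe had 73.1 UMIs per barcode, 1.12 times the blood-cell level (1.09 to 1.15), and 47.3% of the 10 genes, with Apoa1, Apoa2 and Apoc1 at 0.924, 0.905 and 0.907 times. In CPM, Apoe was at 13999 in endothelial-like and 14628 in blood-cell barcodes there, and at 15565 and 15742 in the control. Per barcode in the control Apoe was at 1.10 times (1.03 to 1.18) and Apob, at 5.41 UMIs per barcode, at 1.40 times (1.06 to 1.87). Stellate-like barcodes, the other cells known to make Apoe, had 71.9 UMIs of it in the tetYAP_4W library, a ratio of 1.10 (1.05 to 1.16) over 21 barcodes, and 61.2 in the control, a ratio of 0.943 (0.834 to 1.06) over 6. In order, then, Apoe per barcode in the tetYAP_4W library was 90.2 in unclassed, 85.7 in macrophage-like, 73.1 in endothelial-like, 71.9 in stellate-like, 67.4 in neutrophil- or monocyte-like, 65.7 in B or plasma cell-like, 65.5 in T or NK cell-like and 63.6 in erythroid-like barcodes. Endothelial-like and stellate-like barcodes overlapped in their counting intervals, as did the last 4 classes among themselves. These are counts per barcode at unequal depth, and in CPM the order was another one: 21454 in unclassed, 20442 in stellate-like, 19128 in macrophage-like, 16831 in erythroid-like, 16041 in B or plasma cell-like, 15267 in neutrophil- or monocyte-like, 13999 in endothelial-like and 13467 in T or NK cell-like barcodes.

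**Figure D4:**
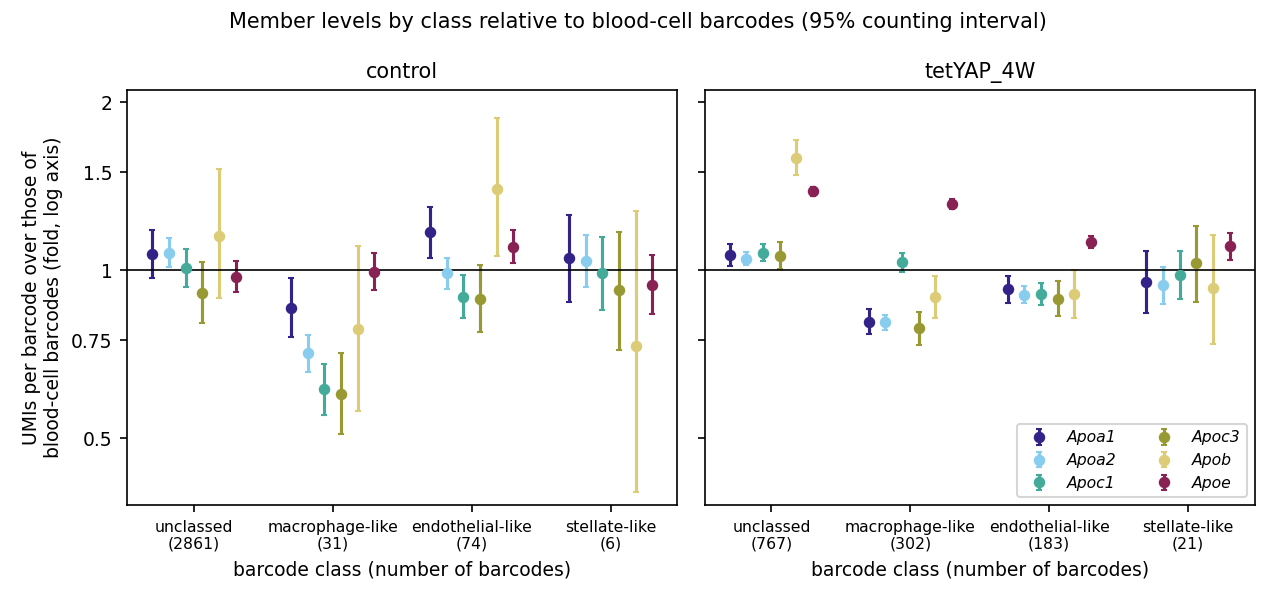
UMIs per barcode of 6 members in unclassed, macrophage-like, endothelial-like and stellate-like barcodes, divided by those of blood-cell barcodes of the same library (log axis, 1 marked by a line); bars are exact 95% counting intervals and the number of barcodes stands under each class. In macrophage-like barcodes Apoe lies above Apoa1, Apoa2 and Apoc3 in both libraries, and in the tetYAP_4W library it lies above 1.

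Single barcodes were compared after each was thinned to 1000 UMIs, which left out 25 control barcodes below that depth. In the unclassed barcodes of the control Apoe had a median of 20 UMIs (quartiles 17 and 24) and Apoa2 27 (23 and 31), and in those of the tetYAP_4W library 21 (16 and 26) and 9 (6 and 13). The variance over the mean (Fano factor, 1 for pure sampling) of Apoe was 1.47 and 2.72, and that of Apoa2 1.65 and 3.28. Of the classes and members measured this way, Apoe varied most in the macrophage-like barcodes of the tetYAP_4W library, with a median of 18.5, quartiles of 10 and 26, a highest value of 73 and a Fano factor of 7.20, beside 1.63 in blood-cell barcodes. Apob, with a median of 1 UMI in both libraries, had Fano factors of 1.04 and 1.25. At so few UMIs these values cannot be set beside those of Apoe and Apoa2.

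Over unclassed barcodes the thinned UMIs of Apoa2 and Apoc1 were the most closely related pair in the tetYAP_4W library (Pearson r = 0.55 over 767 barcodes) and Apoa2 and Apoe in the control (r = 0.29 over 2836 barcodes). Apob was nearly unrelated to Apoa1, Apoa2, Apoc1 and Apoc3 in both libraries, with r between -0.09 and 0.03. It had r = 0.22 with Apoe in the tetYAP_4W library. Apob had a mean of only 1.45 thinned UMIs in the control and 1.75 in the tetYAP_4W library. At such counts sampling alone draws r toward 0. These barcodes share a library and its free RNA, and the correlations are given as a description.

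The highest barcodes of the tetYAP_4W library followed the same split. Apoe exceeded the highest blood-cell barcode (140 UMIs) in 77 of 767 unclassed barcodes (10.04%, 8.004 to 12.4), and Apob its own (14 UMIs) in 64 (8.34%, 6.49 to 10.5). Both did so in 33. Apoa2 exceeded the highest blood-cell barcode (82 UMIs) in 21 and Apoc1 (47 UMIs) in 26, with 13 in common, and only 3 of the 21 were also above for Apoe. The 77 barcodes high in Apoe had a median mitochondrial share of 60.8% and the 21 high in Apoa2 one of 25.2%, and both sets had a median of 2 Malat1 UMIs. Their median depths were 5887 and 4523 UMIs, and that of the 64 high in Apob 5969.5, against 3978 over all unclassed barcodes. Of the macrophage-like barcodes, 37 of 302 exceeded 140 Apoe UMIs, 10 of them also above for Apoc1 and 0 for Apoa2. These 37 had a median of 29 Malat1 UMIs. In the control, against the highest of 15 blood-cell barcodes, Apoe was above in 207 of 2861 unclassed barcodes and Apoa2 in 375. These counts were added after the values were seen.

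**Figure D5:**
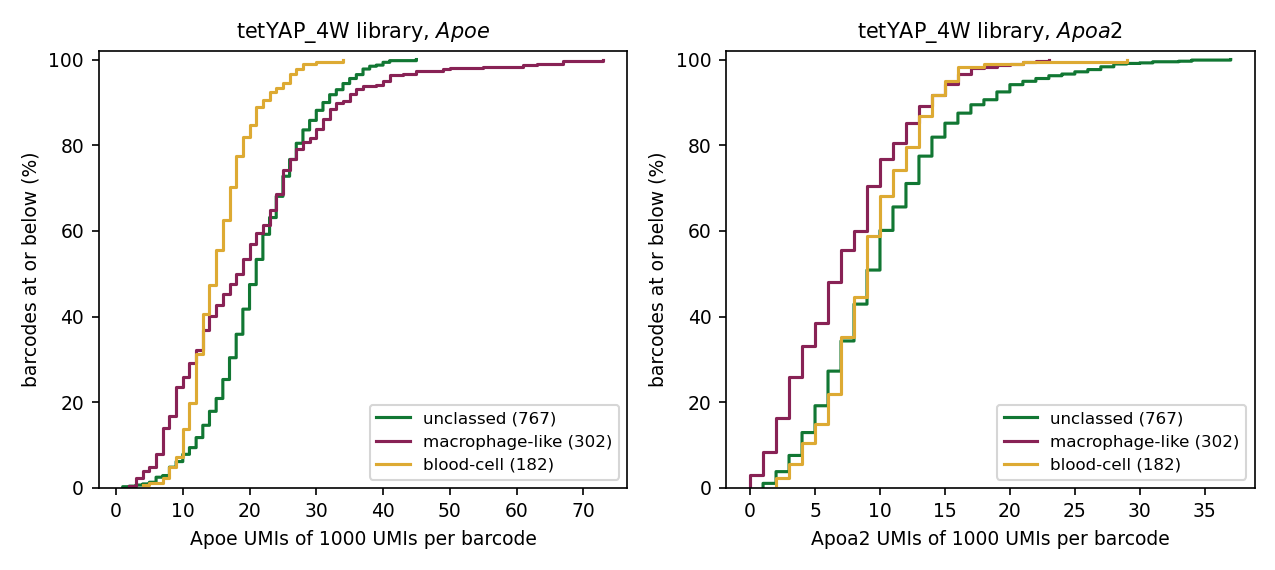
Cumulative share of tetYAP_4W barcodes (y axis, percent) at or below a given number of Apoe (left) or Apoa2 (right) UMIs after thinning each barcode to 1000 UMIs, for unclassed, macrophage-like and blood-cell barcodes. For Apoe the macrophage-like curve reaches 73 UMIs and the blood-cell curve 34, and for Apoa2 their medians are 7 and 9 UMIs.

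The genes ranked most like Apoe across classes were not those ranked most like the other 9 members. Over 10 sums, each of a class in a library with at least 20 barcodes, the genes whose log2(CPM + 1) was most like that of Apoe were Mlxipl, a carbohydrate-responsive transcription factor (Pearson r = 0.89), Echdc2 (0.84), Serpinf2, the plasmin inhibitor (0.84), the mitochondrial gene mt-Nd2 (0.83) and Ugt2b34 (0.82). The summed CPM of the other 9 was most like Apoa2 (0.998), then Serpina1b (0.99), Apoc3 (0.99), Ttr (0.99) and Hamp (0.99), of which Apoa2 and Apoc3 are part of that sum, all genes of secreted hepatocyte proteins. The sums share 2 libraries and their free RNA, and the r values describe these 10 points. The genes named are the highest of 7828, and whether such r values would arise by chance was not tested.

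Other genes of lipoprotein metabolism were counted in unclassed barcodes by lists taken whole. For all 5548 genes with at least 100 UMIs in these barcodes, 20.3% were lower and 7.05% higher past 2-fold. The counts of the lists depended on the totals: without mitochondrial transcripts in them, the 6 genes lower past 2-fold over the 6 lists became 0 and the 8 higher became 16. No share of all genes past 2-fold is given for those totals. The median of all genes then moved from -0.43 to 0.17, that of the regulators from -0.46 to 0.14 and that of the other apolipoproteins from -0.42 to 0.19. In the list of other apolipoproteins 2 of 9 genes with at least 100 UMIs were lower past 2-fold, 0 were higher, and the median log2 ratio was -0.42, beside -0.43 for all genes. Apoo, a mitochondrial membrane protein despite its name, had a log2 ratio of -1.30 (-1.85 to -0.78) and Apoc4 one of -1.18 (-1.24 to -1.12). At the upper end were Apol9a at 0.23 (-0.13 to 0.59) and Apol7a at -0.02 (-0.36 to 0.30).

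The genes of particle assembly and secretion had a median of 0.02, with 1 of 12 higher and 1 lower past 2-fold. Sar1b, the GTPase of the vesicles that carry lipoproteins out of the endoplasmic reticulum, had a log2 ratio of -1.38 (-1.58 to -1.18), and Cideb, a lipid droplet protein used in lipidation, one of -0.82 (-1.09 to -0.56). Tm6sf2, required for lipid loading of very-low-density lipoprotein, had 1.11 (0.56 to 1.65) on 67 and 52 UMIs, and Soat2, a cholesterol esterifying enzyme, 0.45 (-0.19 to 1.06).

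Of the plasma enzymes and their inhibitors 2 of 11 were higher past 2-fold and 0 lower, with a median of -0.05. The 2 were Pltp, the phospholipid transfer protein, at 2.35 (1.88 to 2.83) and Gpihbp1, the anchor of lipoprotein lipase on capillary endothelium, at 2.097 (1.69 to 2.51). At the lower end lay Lcat, the enzyme that Apoa1 activates, at -0.48 (-0.64 to -0.32). Gpihbp1 is an endothelial gene, and the unclassed tetYAP_4W barcodes can hold up to 9 UMIs of another class's markers: their median for macrophage markers was 3 UMIs, and 0 in the control.

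The uptake list had the highest median, 0.75, with 4 of 10 genes higher past 2-fold and 0 lower. Cd36, the fatty acid scavenger receptor, had 37 and 374 UMIs and a log2 ratio of 4.81 (4.32 to 5.34). Stab1, a scavenger receptor of sinusoidal endothelium and macrophages, had 2.36 (1.9002 to 2.84). Lrp1, a remnant receptor that binds Apoe, was named after its value was seen and had 1.24 (1.09 to 1.39). Near the lower end was Scarb1, the receptor of high-density lipoprotein, at 0.34 (0.03 to 0.65). The limit given for Gpihbp1 holds for this list too, since unclassed barcodes can hold some marker UMIs of other classes. The median for macrophage markers was 3 UMIs in unclassed tetYAP_4W barcodes and 0 in unclassed control ones. What part of the ratios of Cd36, Stab1 and the other uptake genes came from RNA of other classes was not tested.

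No sterol transporter of 6 was past 2-fold, and the median was 0.17, from Abcg8 at -0.52 (-1.03 to -0.04) and Abcb11 at -0.18 to Abcg5 at 0.21 (-0.31 to 0.72) and Npc2 at 0.49 (0.25 to 0.72). Of 15 regulators 3 were lower and 1 higher past 2-fold, beside 20.3% and 7.05% of all genes, with a median of -0.46. Nr0b2, the corepressor of bile acid synthesis, had -1.53 (-1.89 to -1.19) and Ppara, the fatty acid sensor, -1.49 (-2.24 to -0.81). Srebf1, the master factor of lipogenesis, had 1.39 (1.15 to 1.62) and Mlxipl 0.89 (0.67 to 1.11). Named after its value was seen, Cebpa, a hepatocyte transcription factor, was the other gene lower past 2-fold, at -1.19 (-1.41 to -0.98). Hnf4a had -0.46 (-0.68 to -0.25), near the median of all genes.

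The comparison list of 16 other plasma proteins of hepatocytes did not share the ratios of the high-density and C apolipoproteins. Its median log2 ratio was 0.24, with 3 genes higher and 2 lower past 2-fold, beside 7.05% and 20.3% of all genes. C3, the central complement factor, had 1801 and 7191 CPM and a log2 ratio of 1.997 (1.97 to 2.03), and Itih4 one of 1.19 (1.12 to 1.25). Rbp4, the retinol carrier, at -1.17 (-1.21 to -1.13) and Azgp1 at -1.03 (-1.12 to -0.94) lay nearest to Apoa1 and Apoa2, whose -1.47 was below every gene of that list.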

How the data were processed

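Liver cells of 1 control and 1 tetYAP_4W library were profiled by droplet single-cell RNA-seq. The authors aligned reads to mm10 with Cell Ranger, handled the data with Seurat 3, reduced each condition to 3000 barcodes and left out barcodes over 7500 UMIs, and deposited raw counts (UMIs) of 31053 genes in 4513 barcodes. Doublets were not removed, and no doublet caller was run here. Sums over barcodes were scaled to CPM. Exact Poisson, Clopper-Pearson and conditional binomial 95% intervals (Python 3.11.15, scipy 1.17.1) cover counting error only. Ratios were computed after a check on simulated data. Counts past 2-fold and medians took only genes with at least 100 UMIs over both libraries. Leiden clusters (scanpy 1.11.5) and TMM factors (edgeR 4.0.16, normalization only) served as alternatives. Promoters came from RefSeq (GRCm38.p6).

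The members, lists and classes were chosen with earlier results of these data known, and the class minimum of 10 UMIs was set with these data in view. All 10 members were reported. Each list was counted whole, and the 2 highest and 2 lowest log2 ratios were named, or the 5 genes most like a profile. Some genes that this rule names are not reported here. Mouse Yap1 (155 and 128 UMIs) cannot check the transgene, whose sequence may not map to it.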

Additional observations from a re-analysis of the deposited data

Results flagged for a closer look

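Xist had 4859 UMIs in the tetYAP_4W library against 3 in the control, and 4 Y-linked genes had 716 UMIs in the control against 0; these genes enter no comparison of the members.

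The endothelial-like level of Apoa1 relative to blood-cell barcodes was 0.924-fold in the tetYAP_4W library and 1.17-fold in the control, on opposite sides of 1. The summed level of the 10 genes in macrophage-like barcodes was 1.06-fold the blood-cell level in the tetYAP_4W library and 0.782-fold in the control. Neither difference between the libraries was tested.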

How the results depend on the processing

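The log2 ratio of the 10 genes summed over all barcodes was -0.96. It was -1.21 in barcodes of at most 30% mitochondrial UMIs, -0.70 without mitochondrial transcripts in the totals, -0.997 without these and the 50 most abundant genes, -1.52 with TMM factors, -0.90 both as a mean of CPM per barcode and thinned to 1000 UMIs, and -0.48 as UMIs per barcode. In unclassed barcodes it was -0.79, and in the same order -0.60, -0.19, -0.30, (with TMM factors) -0.79, -0.75, -0.75 and -0.37. With Leiden clusters it was -0.91, over a different set of barcodes. A cluster of 297 tetYAP_4W barcodes was called stellate or mesenchymal there, against 21 such barcodes by the marker rule. The log2 ratio was -2.10 in barcodes with no marker UMI of another class (1364 control and 4 tetYAP_4W), and 0.58 in barcodes over 50% mitochondrial UMIs. In those last barcodes, 41 of them control, Apoa2 (0.0057), Apoc1 (0.15) and Apoc3 (0.44) changed sign. The cause was not tested.

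Members lower past 2-fold in unclassed barcodes numbered 5, and 1 at up to 30% mitochondrial UMIs, 0 without mitochondrial transcripts, 2 per barcode, and 0 with 1 higher over 50%. Over all barcodes they numbered 5, and 2 per barcode. Of all genes, 20.3% were lower past 2-fold in unclassed barcodes and 8.96% over all barcodes. Per barcode these shares were 6.56% and 3.19%, and none is given for the other settings. In the pathway lists 8 genes were higher and 6 lower past 2-fold, and 16 and 0 without mitochondrial transcripts. The macrophage-like Apoe fold in the tetYAP_4W library was 1.32, 1.25 with Leiden clusters, 1.25 as a share of the 10 genes and 1.37 at 10 or more C1q UMIs. The alternatives per barcode, by Malat1, over 50% and by C1q were chosen after seeing the data. Of 263 alternatives over all results, 160 moved by more than the counting interval or, for counts, by over 1.5 times, and 3 values past 2-fold changed sign. Of the 220 that concern log2 ratios 18 had the other sign, these 3 and ratios that were not past 2-fold, among them the unclassed sum, Apob (-0.20 at up to 30%), Apoa5 (0.15 without mitochondrial transcripts) and Apoe over all barcodes (0.17).

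No paired analysis was possible because each group has 1 library.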
